A study of Mus musculus with 6 samples.

Results

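The untreated differentiating satellite cell cultures are the 3 control libraries of a series of 6 RNA sequencing libraries from mouse skeletal muscle, and they were chosen by their titles, which carry no inhibitor name, and by their columns in the deposited count tables. Satellite cells are the resident stem cells of skeletal muscle. They were isolated from the gastrocnemius muscle of C57Bl/6 mice, grown on 4% matrigel, a basement membrane extract, and moved to differentiation medium, in which the untreated group was kept for 24 h without the inhibitor (0% BAPN). The series description counts each replicate as an independent biological one, and no genetic change or other agent is given for any group. Fibroblasts were depleted before culture by moving the unattached cells to fresh plates, and the labels describe no sort by surface markers. The sources disagree on the age of the mice (8 weeks in the age label, 6 weeks in the protocol text) and on the serum of the medium (4% horse serum in the design text, 10% fetal calf serum in the protocol text). The other 3 libraries, treated with BAPN, were not compared here.

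When satellite cells leave their resting state they become dividing myoblasts, which carry MyoD (Myod1) and then switch on myogenin (Myog), leave the cell cycle and fuse into multinucleate myotubes. Fusion needs the membrane protein myomaker, and the new fibres assemble sarcomeres from developmental forms of actin, myosin and troponin that are later exchanged for adult forms. A minority of the progeny keeps Pax7, stays undifferentiated and can return to rest.

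The 3 libraries held total counts of 18682099, 18613333 and 18335559. A level is given below in TPM (transcripts per 1000000), that is the raw count divided by the gene's exonic length and scaled to the same sum in each library, so that genes can be set beside each other. A spread between libraries is given on normalized counts, the raw count divided by the authors' size factor for the library. Replicates 1 and 2 were closer to each other than to replicate 3, with a median absolute log2 ratio of normalized counts of 0.09 between 1 and 2, 0.17 between 1 and 3 and 0.17 between 2 and 3. On raw counts scaled by library totals, the deviation between replicates 1 and 2 was still 2.28 times that of sampling noise (mean chi-square per gene). It was 19.9 and 20.7 for the other pairs, which includes any offset between the total and the size factor of replicate 3. Replicates 1 and 2 were counted as separate samples. Replicate 3 therefore decides much of the spread described below. The counts, lists and most variable genes that rest on it are given with their values without it.

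The 5 genes by which these cultures were described gave the same picture in every library. Myog, the transcription factor that starts terminal differentiation, stood at 7493, 7200 and 7170 TPM (mean 7288 ± 179, SD, n = 3) and ranked 11th of all genes by mean level. Tmem8c, which encodes myomaker, stood at 3574, 3569 and 4364 TPM (3835 ± 457) and ranked 22nd. H19, an imprinted noncoding RNA of fetal and regenerating muscle, stood at 19224, 20244 and 21319 TPM (20262 ± 1048) and ranked 3rd in each of the 3 libraries. Acta2, the smooth muscle actin that young muscle cells also make, stood at 3213, 3334 and 3847 TPM (3465 ± 337). Pax7, the factor that marks satellite cells, stood at 39.1, 37.2 and 32.6 TPM (36.3 ± 3.37), so Myog was 192, 193 and 220 times as abundant as Pax7 on the TPM scale. The cells thus carried the marker genes of differentiation at far higher levels than the satellite cell marker. In these bulk libraries, fewer cells of a type and less RNA per cell cannot be told apart.

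Myog lies at chr1:134289989-134292548 on the plus strand and H19 at chr7:142575529-142578143 on the minus strand (GRCm38, whole-gene spans). The Myog promoter is shown first because Myog was the most abundant of the muscle regulators, and the Acta1 and Actc1 promoters because these actin genes were the most abundant muscle genes. The sequences are those of RefSeq on build GRCm38.p6 and run from 250 bases before the start of the gene to 50 bases after it. Capitals mark E-boxes, spelled CANNTG, which are read by MyoD and myogenin, and the CArG box, which is read by serum response factor.
Myog, chr1:134289754-134290053, plus strand: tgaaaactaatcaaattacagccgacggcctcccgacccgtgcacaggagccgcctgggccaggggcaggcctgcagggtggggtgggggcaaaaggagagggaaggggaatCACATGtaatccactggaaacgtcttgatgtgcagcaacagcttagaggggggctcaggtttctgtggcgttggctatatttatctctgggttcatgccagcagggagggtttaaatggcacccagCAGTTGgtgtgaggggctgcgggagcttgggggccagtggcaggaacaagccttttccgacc
Acta1, chr8:123894726-123895025, minus strand: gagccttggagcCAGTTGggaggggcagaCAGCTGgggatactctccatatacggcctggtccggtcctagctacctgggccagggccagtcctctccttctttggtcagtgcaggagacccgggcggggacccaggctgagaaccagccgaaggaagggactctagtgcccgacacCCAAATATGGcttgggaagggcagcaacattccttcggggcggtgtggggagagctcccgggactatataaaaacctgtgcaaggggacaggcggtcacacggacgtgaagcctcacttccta
Actc1, chr2:114052826-114053125, minus strand: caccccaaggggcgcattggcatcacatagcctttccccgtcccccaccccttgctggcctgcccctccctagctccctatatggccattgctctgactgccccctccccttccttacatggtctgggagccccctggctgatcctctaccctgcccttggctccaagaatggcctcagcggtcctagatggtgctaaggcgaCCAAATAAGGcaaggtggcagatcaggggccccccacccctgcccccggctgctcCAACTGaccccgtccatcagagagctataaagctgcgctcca
Within these windows Myog held 2 E-boxes and no CArG box. Acta1 held 2 E-boxes, of which 1 was spelled CAGCTG, and a CArG box that begins 73 bases before the start. Actc1 held 1 E-box and a CArG box that begins 47 bases before the start. Both strands were searched, and a CAGCTG match is also a CANNTG match. Of all 27025 promoters listed, 72.1% held CANNTG, 16.1% CAGCTG, 1.57% a CArG box and 3.26% a MEF2 site. Promoters were listed for 35 of the 41 family leaders described below, of which 16 (45.7%) held CAGCTG, 2 (5.71%) a CArG box and 5 (14.3%) a MEF2 site. The 10200 promoters of genes that passed the count filter held CAGCTG in 15.4%, a CArG box in 1.33% and a MEF2 site in 1.83%. These are matches of letters and were not tested.

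H19 is also the host of the miR-675 hairpin, whose mature forms are shown with the seed, bases 2 to 8, in capitals.
miR-675-5p: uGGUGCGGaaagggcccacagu
miR-675-3p: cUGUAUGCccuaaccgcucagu
The mature miRNAs were not measured in these libraries, and H19 itself gave raw counts of 260519, 273860 and 287079.

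Of 18564 genes with a known length, 13088 (70.5%) had a mean level of at least 1 TPM and 101 had at least 1000 TPM. The counts of list members at 1 TPM or more given below are to be set beside this 70.5%. The 100 genes with the most reads held 24.1% ± 1.56 of all counts (SD, n = 3), with values of 23.1%, 23.3% and 25.9%. Reads were thus a little more concentrated in replicate 3, where the 641 most counted genes held 50% of the counts, against the 750 and 749 most counted genes in the other libraries. The 25 most abundant genes by TPM held 24.1% of the summed TPM, and 23 of them were among the first 25 in all 3 libraries. Of these 25 genes, 8 are encoded by the mitochondrial genome and 1 is a ribosomal protein gene.

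The most abundant transcript was Acta1, the skeletal muscle actin, at 23533, 24299 and 29831 TPM (25888 ± 3436). It was followed by mt-Nd1, a mitochondrially encoded subunit of respiratory complex I, at 21213 ± 1421 TPM, and by H19. Actc1, the cardiac actin of embryonic skeletal muscle, stood at 14049, 13786 and 19368 TPM (15734 ± 3149). Mylpf, the fast skeletal regulatory light chain, stood at 10709, 10424 and 12904 TPM (11346 ± 1357). Myh3, the embryonic myosin heavy chain, stood at 6094, 5923 and 8226 TPM (6748 ± 1283). All 4 of these contractile genes were highest in replicate 3, while replicates 1 and 2 stayed close together.

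The other mitochondrial genes among the first 25 were mt-Cytb at 16708 TPM, the ribosomal RNA mt-Rnr2 at 16537 TPM, mt-Co1 at 15855 TPM, mt-Nd2 at 11640 TPM, mt-Nd6 at 7186 TPM, mt-Nd5 at 6231 TPM and mt-Nd4 at 3736 TPM. Of the 100 most abundant genes 9 were mitochondrially encoded. Sequence shared with other genes was not checked for mitochondrial genes, and how shared reads were counted is not given. Their levels and their order are therefore uncertain. The spans of mt-Nd5 (bases 11742 to 13565) and mt-Nd6 (bases 13552 to 14070) overlap only at their ends, on opposite strands. Reads of that short shared stretch cannot be told apart without a strand setting. The same holds for any other reads from the strand opposite mt-Nd6, so its level is uncertain. The remaining contractile genes of this rank were Tpm2 (beta-tropomyosin, 4551 TPM), Tnnc1 (slow and cardiac troponin C, 4472 TPM) and Tnnt3 (fast skeletal troponin T, 4122 TPM). Genes of general use at this rank were Lgals1 (galectin-1, 11718 TPM), Hsp90ab1 (a chaperone, 4442 TPM), Vim (vimentin, 3893 TPM), Aldoa (aldolase A of glycolysis, 3863 TPM), Eef2 (elongation factor 2, 3792 TPM) and Rplp1 (a ribosomal protein, 3598 TPM). Mir6236 stood at 6827 TPM, but its annotated length is only 123 bases, so that a mean normalized count of 4832 gave a high level per length. With their developmental forms included, the 39 measured members of the sarcomeric myosin, light chain, troponin, actin and tropomyosin families made up 8.51%, 8.50% and 10.7% of the summed TPM (9.24% ± 1.26).

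**Figure D1:**
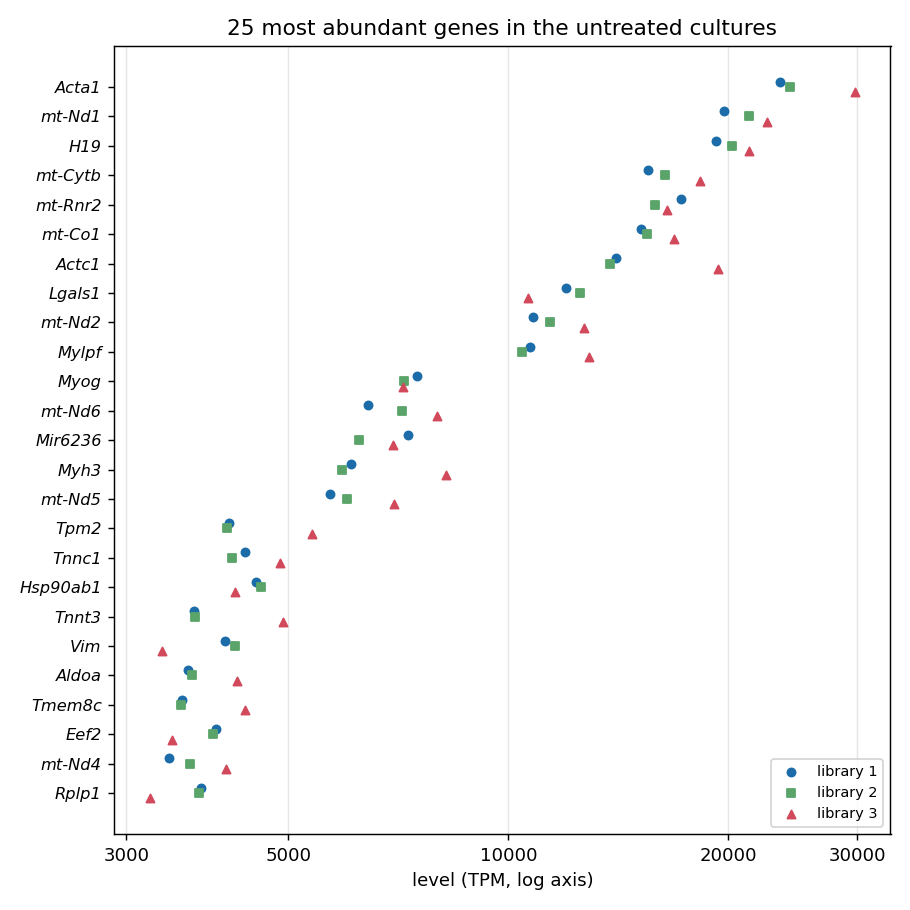
Level in TPM (log axis) of the 25 genes with the highest mean, in rank order, with 1 point for each of the 3 untreated libraries. Acta1 leads in every library with 23533 to 29831 TPM, and the contractile genes Acta1, Actc1, Mylpf, Myh3, Tpm2, Tnnc1 and Tnnt3 have their highest point in library 3.

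Many muscle proteins come in families whose members replace each other during development and between fibre types. In such families the member in use can describe the state of the cells. Other families counted here group different proteins, such as subunits of the same receptor, and their leading member is not a choice between forms. In 37 of 41 families the same member had the highest TPM in every library, and in 35 the ranges of the leading member and the runner-up did not overlap. The leading member held at least 50% of the family's summed TPM in 36 families and at least 90% in 11. The families list 154 genes, of which 146 were measured.

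**Figure D2:**
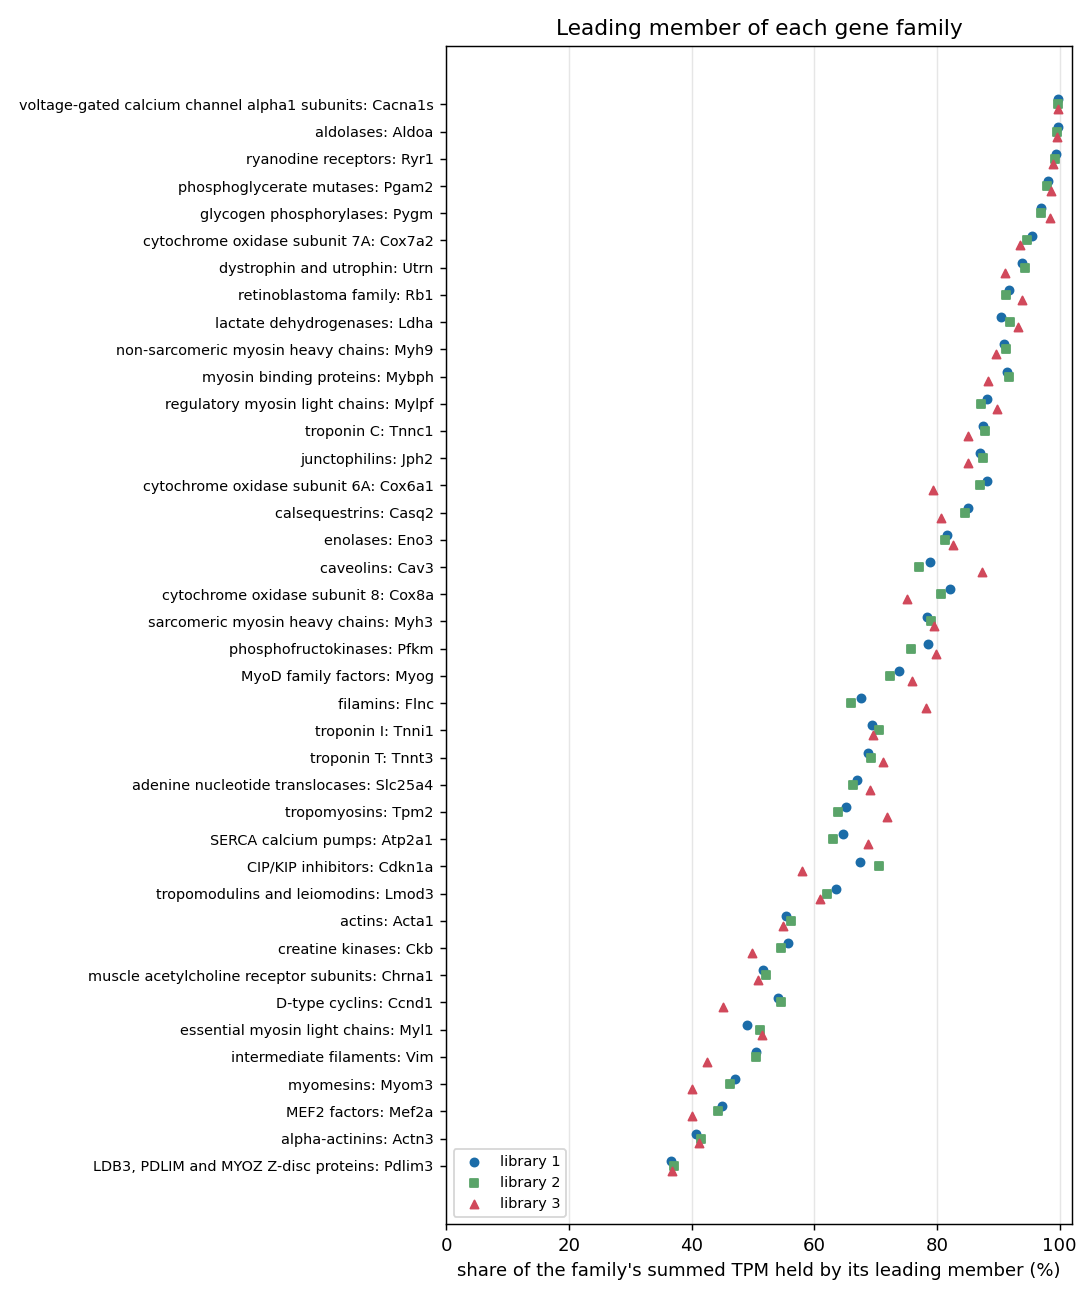
Share of each family's summed TPM held by its leading member (%), for the gene families ordered by the mean share, with 1 point for each untreated library. Shares run from 36.8% for Pdlim3 to 99.7% for Cacna1s, and the points of a family lie close together for most leaders.

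Among the myogenic regulators, Myog held 74.0% ± 1.85 of the MyoD family (SD, n = 3). Myod1, which acts before it, stood at 2597, 2699 and 2202 TPM and held 25.3%. Myf5, a regulator of proliferating myoblasts, stood at 37.4, 34.4 and 31.7 TPM, and Myf6, which is known from maturing fibres, at 25.9 ± 5.79 TPM. Myog was 2.92 times as abundant as Myod1 and Myf5 held only 0.350% of the family. The MEF2 factors, partners of the MyoD family, had no stable leader on the exonic lengths used here. Mef2a stood at 303, 298 and 293 TPM and Mef2d at 277, 284 and 319 TPM, so Mef2d led in replicate 3, and Mef2c held 14.6% of the family. The near tie depends on length. Mef2a was divided by 14681 bases and Mef2d by 5985, while their longest transcripts have 5538 and 5401 bases. Mean normalized counts were 25172 for Mef2a and 10113 for Mef2d.

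The myosin heavy chains, the motors of the thick filament, were embryonic in the main. Myh3 held 79.0% ± 0.518 of the sarcomeric heavy chain TPM. Myh1, the adult fast IIX form, was the runner-up at 1287, 1214 and 1545 TPM, and Myh8, the perinatal form, stood at 318, 289 and 473 TPM. Myh3 and Myh8 together held 82.5%, 82.9% and 84.0%, and the adult skeletal forms Myh1, Myh2, Myh4 and Myh7 together held 17.4%, 17.1% and 15.9%. Myh4, the adult fast IIB form, stood at 59.2 ± 17.6 TPM, Myh7, the slow form, at 15.5 ± 2.82 TPM, and Myh2, the fast IIA form, at 2.86 ± 1.48 TPM. Myh15 had no count in any library, and 7 of the 10 genes were at 1 TPM or more.

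The adult fast heavy chain genes share long stretches, which bears on how far reads of 60 bases separate them. The first 60 coding bases of Myh1 and Myh2 are shown beside those of the embryonic Myh3, from GENCODE M21 transcripts on GRCm38, with capitals where a base differs from Myh1.
Myh1: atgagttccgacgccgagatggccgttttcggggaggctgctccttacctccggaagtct
Myh2: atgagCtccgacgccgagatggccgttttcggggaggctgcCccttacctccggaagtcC
Myh3: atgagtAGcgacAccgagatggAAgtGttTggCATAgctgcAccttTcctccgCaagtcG
Over this stretch Myh2 differed from Myh1 at 3 bases and Myh3 at 15. Of all 60-base windows of the longest transcript, 22.1% in Myh1 and 21.7% in Myh2 also occur in another sarcomeric heavy chain, against 17.7% in Myh8, 14.9% in Myh4 and 3.13% in Myh3. The levels of Myh1, Myh2, Myh4 and Myh8 are therefore less certain than that of Myh3, and the low value of Myh2 in particular depends on how shared reads were counted, which is not given in the sources used here.

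The actins form the thin filament and the cytoskeleton. Acta1 held 55.5% ± 0.666 of the family and Actc1 33.6% ± 1.92, with Acta1 1.54 to 1.76 times as abundant. Acta2 held 7.46%, the cytoplasmic Actb 3.32% and the cytoplasmic Actg1 0.102%, and in Actg1 56.1% of the windows also occur in other genes, among them pseudogenes. The coding starts of the 3 leading muscle actins, with capitals where a base differs from Acta1, show how far reads of these genes can be separated.
Acta1: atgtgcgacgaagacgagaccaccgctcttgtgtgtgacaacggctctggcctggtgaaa
Actc1: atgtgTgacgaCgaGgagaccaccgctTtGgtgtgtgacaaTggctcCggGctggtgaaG
Acta2: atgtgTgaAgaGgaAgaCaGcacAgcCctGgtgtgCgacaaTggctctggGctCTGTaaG
Actc1 differed from Acta1 at 9 of these 60 bases and Acta2 at 17, and identity over the whole coding sequence was 86.3% and 85.4%. No 60-base window of Actc1 or Acta2 occurred in another gene, and 1.51% of those of Acta1 did, so the order of the 3 actins rests on reads that separate them.

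The light chains mixed fast, embryonic and non-muscle forms, and the troponins mixed forms that adult muscle keeps in different fibres. Myl1, the fast skeletal essential light chain, held 50.5% ± 1.26 and Myl4, the embryonic and atrial form, 26.7%, with Myl6b at 17.1% and the non-muscle Myl6 at 5.61%. The order of Myl1 and Myl4 turned when reads were taken without length or divided by the median length of coding transcripts, and 20.7% of the windows of Myl1 also occur in a pseudogene. Mylpf held 88.4% ± 1.29 of the regulatory light chains, followed by the non-muscle Myl12a at 8.90%, and Myl10 had no count. Tnnt3, the fast troponin T, held 69.7% ± 1.23, the slow Tnnt1 17.7% and the cardiac Tnnt2, which embryonic skeletal muscle also makes, 12.6%. The share of Tnnt2 depends on its length, taken as 7752 exonic bases, while its longest transcript has 3330. Its mean normalized count was 33422.9, against 37710.5 for Tnnt3 and 13107.5 for Tnnt1. For troponin I the slow gene led instead of the fast one. Tnni1 stood at 1219, 1212 and 1651 TPM and held 69.8% ± 0.621, and the fast Tnni2 stood at 535, 504 and 720 TPM. The slow and cardiac Tnnc1 held 86.8% ± 1.48 of troponin C over the fast Tnnc2, although 49.0% of the windows of Tnnc2 overlap the cell cycle gene Ube2c on the opposite strand, so its value is uncertain. The leading subunits of the troponin complex thus were the fast form for T and the slow forms for I and C in every library.

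**Figure D3:**
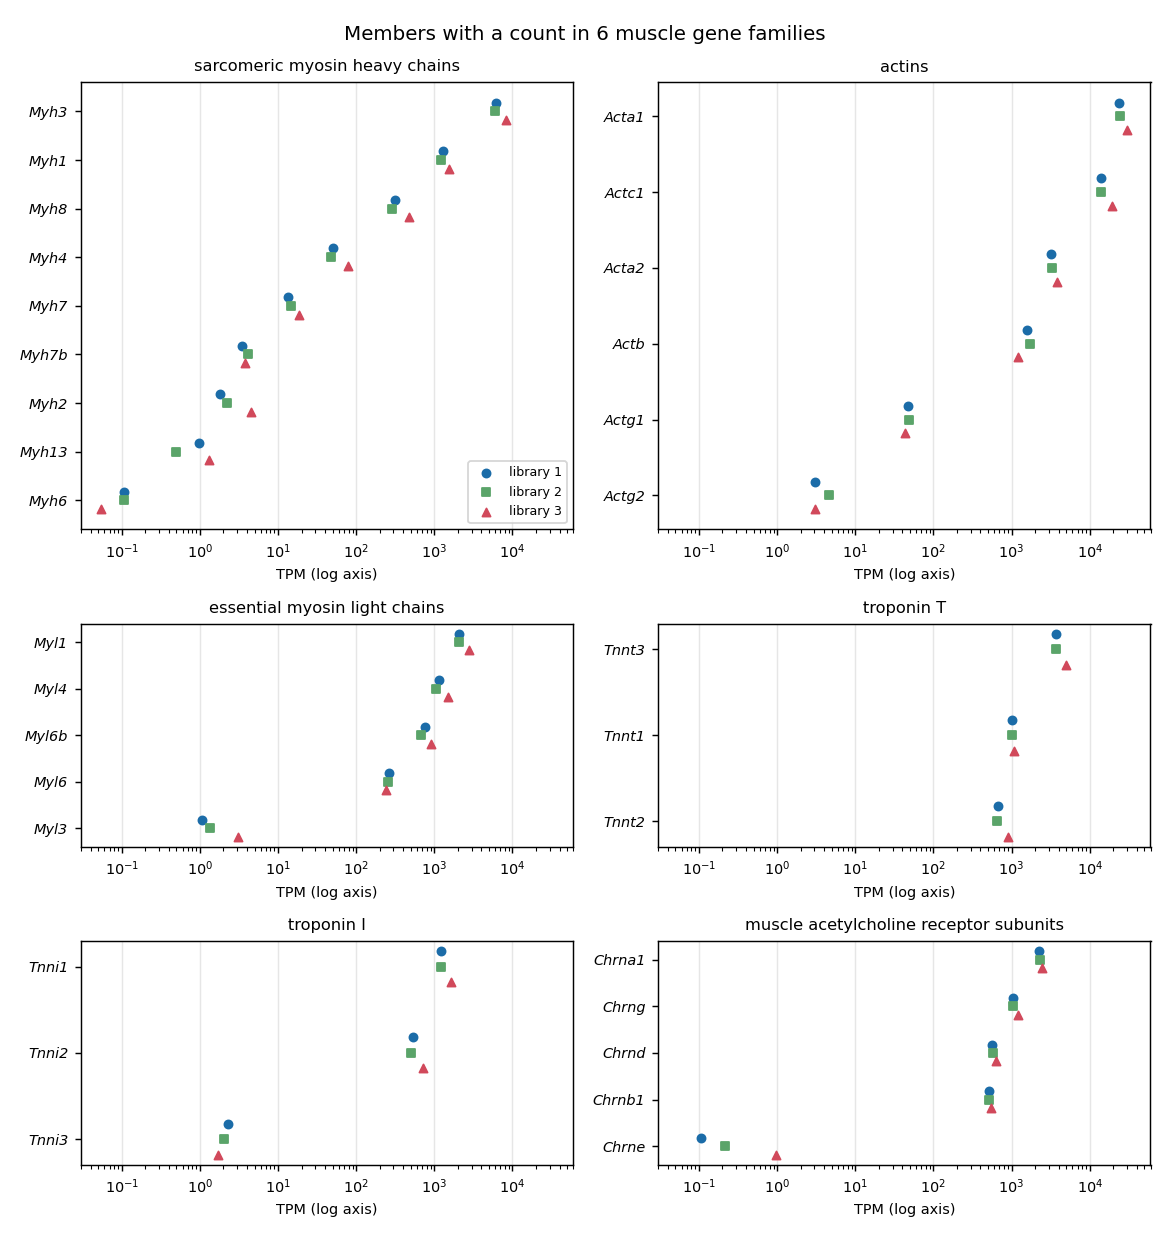
Level in TPM (log axis) of the members of 6 families with a count, ordered by mean, with 1 point for each untreated library and a point left out where the count was 0. Members of a family differ by several powers of 10 (Myh3 at 6748 TPM and Myh6 at 0.0901 TPM), which is far more than the 3 libraries of any abundant member differ.

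Other families of the sarcomere had clear leaders or near ties. Tpm2 held 66.9% ± 4.24 of the tropomyosins, Tpm1 26.5% and the non-muscle Tpm4 5.58%. Mybph, a myosin binding protein, held 90.5% ± 1.88 of its family and Mybpc1, the slow form, 8.90%, with Mybphl at 0 counts. In Mybph 43.8% of the windows also occur in Adora1, so its reads may be shared. Flnc, the muscle filamin, held 70.6% and Flna 23.7%. Lmod3 held 62.1% of the tropomodulins and leiomodins, Lmod2 22.4% and Tmod1 11.8%. Pdlim3 (462 TPM) and Ldb3 (419 TPM) of the Z-disc were close, with overlapping ranges, ahead of Pdlim7 (18.2% of the family), Myoz2 (5.52%) and Pdlim5 (5.19%).

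In 3 further families the leader changed with the library. Actn3, the fast alpha-actinin, stood at 955, 967 and 1194 TPM and Actn2 at 788, 743 and 1199 TPM, and Actn2 led in replicate 3. The non-muscle forms Actn4 and Actn1 held 14.3% and 8.88%. Myom3 stood at 306, 286 and 320 TPM and Myom2 at 251, 241 and 352 TPM, so the M-band protein in the lead also differed in replicate 3, with Myom1 at 15.1%. Among the D-type cyclins Ccnd1 stood at 261, 278 and 179 TPM and Ccnd3 at 185, 190 and 185 TPM, with Ccnd2 at 7.98%. The leader by mean of these 3 families also depends on length. With the longest transcript, and without length, Actn2, Myom2 and Ccnd3 led. With the median length of coding transcripts Actn4, Myom2 and Ccnd3 led. Together with the MEF2 factors these are the 4 families without 1 leader in every library on the exonic lengths used here. On those lengths replicates 1 and 2 had the same leader in all 41.

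Of the 20 large and chaperone-like sarcomere proteins, 19 were at 1 TPM or more. Cryab, a small heat shock protein, stood at 1860 TPM, Ankrd1, a stress-responsive titin ligand, at 1599 TPM, and Klhl41, which stabilizes thin filaments, at 527 TPM. The intermediate filaments were led by Vim, the filament protein of undifferentiated cells, at 4097, 4229 and 3353 TPM over Des (desmin, the muscle form) at 2732, 2846 and 3170 TPM. Vim was 1.06 times as abundant as Des in replicate 3 and 1.34 times over the means of the 3 libraries, and Nes (nestin) held 14.8%.

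In the membrane system that couples excitation to contraction, the calcium release channel and the voltage sensor were of the skeletal type. The leading calsequestrin was the slow and cardiac form. Ryr1, the calcium release channel, held 99.2% ± 0.201 of the ryanodine receptors and Cacna1s, the voltage sensor, 99.7% ± 0.0225 of its family. Atp2a1, the fast calcium pump, held 65.5% and Atp2a2, the slow and cardiac pump, 34.4%. The calcium buffer was mainly Casq2, the slow and cardiac calsequestrin, at 1451, 1365 and 1868 TPM, against 255, 249 and 450 TPM for Casq1. Jph2 held 86.6% of the junctophilins, which tie the membranes together, and Jph1 13.4%. Of the 13 partner genes all were at 1 TPM or more, led by Bin1, which shapes the transverse tubules, at 1593 TPM, Cacng1, a subunit of the voltage sensor, at 881 TPM and Hrc, a calcium-binding protein, at 606 TPM.

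Surface receptors were of the embryonic type. Chrna1, the alpha subunit of the acetylcholine receptor, held 51.5% and Chrng, the fetal gamma subunit, 24.0%, with Chrnd at 13.0% and Chrnb1 at 11.5%. With the median length of coding transcripts Chrng led in place of Chrna1. Chrng stood at 1042, 1029 and 1216 TPM and Chrne, the adult epsilon subunit that replaces it, at 0.107, 0.215 and 0.973 TPM. Chrne thus rested on few reads, and it was highest in replicate 3. All 8 synapse partners were at 1 TPM or more, led by Rapsn, which clusters the receptor, at 339 TPM, Dok7 at 181 TPM and Erbb3 at 177 TPM. Utrn, the fetal relative of dystrophin, held 93.1% ± 1.78 over Dmd, which stood at 3.07, 2.78 and 5.06 TPM. Cav3, the muscle caveolin, held 81.1% and Cav1 17.2%, but Cav1 led with the median length of coding transcripts.

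Energy enzymes were the muscle forms where glycogen and glycolysis are concerned. Pygm held 97.4% of the glycogen phosphorylases, Pgam2 98.3% of the phosphoglycerate mutases, Eno3 81.8% of the enolases with Eno1 at 17.9%, Pfkm 78.0% of the phosphofructokinases with Pfkl at 18.6%, Aldoa 99.6% of the aldolases and Ldha 91.9% of the lactate dehydrogenases with Ldhb at 8.13%. In Eno1 69.5% of the windows occur in other genes, so its share is uncertain, and the same holds for Pgam1 with 41.1% and Slc25a5 with 37.6%. Cytochrome oxidase, by contrast, was led by the forms that most tissues use. Cox6a1 held 84.9%, Cox7a2 94.6% and Cox8a 79.3%, and the heart and muscle forms Cox6a2, Cox7a1 and Cox8b held 15.1%, 5.38% and 20.7%. Ckb, the brain-type creatine kinase of immature muscle, stood at 611, 585 and 738 TPM and Ckm, the muscle form, at 475, 475 and 726 TPM, with overlapping ranges. Slc25a4, the muscle and heart nucleotide translocase, held 67.4% over Slc25a5. Over the whole glycolysis and hypoxia list, 28 of 29 genes were at 1 TPM or more, with Aldoa, Pkm (1741 TPM) and Ldha (1460 TPM) in the lead.

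Most genes of cell fusion were detected. Of 25 measured genes of fusion and fusion adhesion 24 were at 1 TPM or more, against 70.5% of all genes with a length. They were led by Tmem8c, Cdh15 (M-cadherin, 887 TPM) and Itgb1 (integrin beta-1, 831 TPM). Gm7325, the symbol under which the table lists myomixer, the small partner of myomaker, stood at 497, 430 and 618 TPM. Adgrb1, a receptor named in fusion studies, stood at only 0.243 TPM.

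The imprinted genes of fetal growth were abundant as well. After H19 came Igf2, the growth factor encoded beside it, at 2444, 2415 and 3026 TPM and Cdkn1c, a cell cycle inhibitor, at 1418, 1229 and 2193 TPM. Of the 20 imprinted genes listed, 19 were at 1 TPM or more. The muscle growth ligands and receptors were led by Igf2, Igfbp5 (284 TPM) and Igfbp3 (227 TPM), while Mstn (myostatin), which limits muscle growth, stood at 107, 118 and 143 TPM and Igf1 at 3.74 TPM.

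Of 28 measured satellite cell and progenitor markers 24 were at 1 TPM or more, and their summed level was 6329, 6442 and 6664 TPM. The 3 highest were Des, Cdh15 and Itga7 (567 TPM), which differentiating cells also carry. Of these 28 markers 22 were above 16.9 TPM, the median of the genes at 1 TPM or more, among them Pax7 at 36.3 TPM. Among the lower ones, Cd34 stood at 1.37, 1.57 and 0.727 TPM, Pax3 at 0.274 TPM and Calcr, a receptor of resting satellite cells, at 0, 0 and 0.0467 TPM. Notch pathway genes, which hold satellite cells back from differentiation, included Hes1 at 179 TPM, Heyl at 27.8 TPM and Hey1 at 7.12 TPM. Pax7 and Myf5 were nearly level, with a highest library 1.11 and 1.09 times the lowest in normalized counts.

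A cycling signal was present in all 3 libraries. All 30 genes of S phase and all 30 of G2 and M phase had a mean of at least 1 TPM, against 70.5% of all genes with a length. The S phase genes were led by Rrm2, a subunit of ribonucleotide reductase, at 216, 223 and 119 TPM, Rrm1 at 55.4 TPM and Pcna, the sliding clamp of DNA replication, at 44.0 TPM. The G2 and M phase genes were led by Ube2c, an enzyme of mitotic protein degradation, at 154, 160 and 120 TPM (uncertain because it overlaps Tnnc2), Cdc20 at 132, 127 and 73.6 TPM and the kinase Plk1 at 63.6 TPM. The proliferation marker Mki67 stood at 18.9, 21.6 and 11.1 TPM, close to the median of 16.9 TPM over the genes at 1 TPM or more. At the same time Cdkn1a (p21), which stops the cell cycle when myoblasts differentiate, stood at 3008, 3004 and 3060 TPM and held 65.3% ± 6.57 of its family, with Cdkn1c at 34.1%. Rb1, which keeps differentiated cells out of the cycle, held 92.3% ± 1.33 of the retinoblastoma family. On the TPM scale Cdkn1a was 159, 139 and 276 times as abundant as Mki67.

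Markers of other cell types were scanned as whole lists. The 10 endothelial markers summed to 6.26, 6.05 and 7.18 TPM and were led by Egfl7 (1.49 TPM), Vwf and Tek. The 8 Schwann cell markers summed to 7.91, 8.53 and 6.82 TPM, led by Mbp (3.66 TPM) and Ngfr, with Pmp2 at 0 counts in every library. The 14 macrophage and leukocyte markers summed to 17.1, 16.3 and 24.7 TPM, led by Cd68 (5.74 TPM), Cd14 and Itgam. The 8 adipocyte markers summed to 25.4, 26.0 and 25.8 TPM, led by Pparg (9.76 TPM), Cebpa and Cd36, with Cidec at 0 counts. The 6 red blood cell genes summed to 0.433, 0.421 and 2.39 TPM, led by Hbb-bs and Hba-a1, with Hbb-bt at 0 counts. Defining genes of these types were near 0, with means of 0.635 TPM for Cdh5, 0.0398 TPM for Sox10, 0.0232 TPM for Ptprc and 0.0879 TPM for Adipoq, although the leukocyte and red blood cell sums were highest in replicate 3.

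The 16 fibroblast markers summed to 184, 209 and 218 TPM. Col1a1 stood at 60.8 TPM, Col3a1 at 52.7 TPM and Col1a2 at 31.8 TPM, while Dcn, Pdgfra and Lum stood at 1.49, 0.750 and 0.323 TPM. The collagens as a group were led by Col18a1 (231 TPM), Col5a2 (148 TPM) and Col4a1 (111 TPM), of which Col18a1 and Col4a1 belong to basement membranes, and 14 of 15 were at 1 TPM or more. The smooth muscle list summed to 4012 ± 369 TPM, but to 548 ± 32.0 TPM without Acta2, with Smtn at 216 TPM and Cald1 at 135 TPM next. Of the 11 smooth muscle markers 8 were at 1 TPM or more, and the median of the list was 23.8 TPM. Those below 1 TPM were Cnn1, Myh11 and Myocd, at 0.199, 0.160 and 0.151 TPM, and Actg2 stood at 3.55 TPM. The 7 pericyte markers summed to 170 ± 3.52 TPM, led by Notch3 (58.6 TPM), Abcc9 (43.1 TPM) and Mcam (32.7 TPM), with Kcnj8 at 0 counts. The 6 tenocyte markers summed to 305 ± 21.7 TPM, of which Scx, a tendon transcription factor, stood at 251, 254 and 229 TPM, Tnc at 55.1 TPM and Thbs4 at 2.83 TPM. Tnmd, a marker of mature tendon cells, stood at 0.268, 0.269 and 2.03 TPM.

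**Figure D4:**
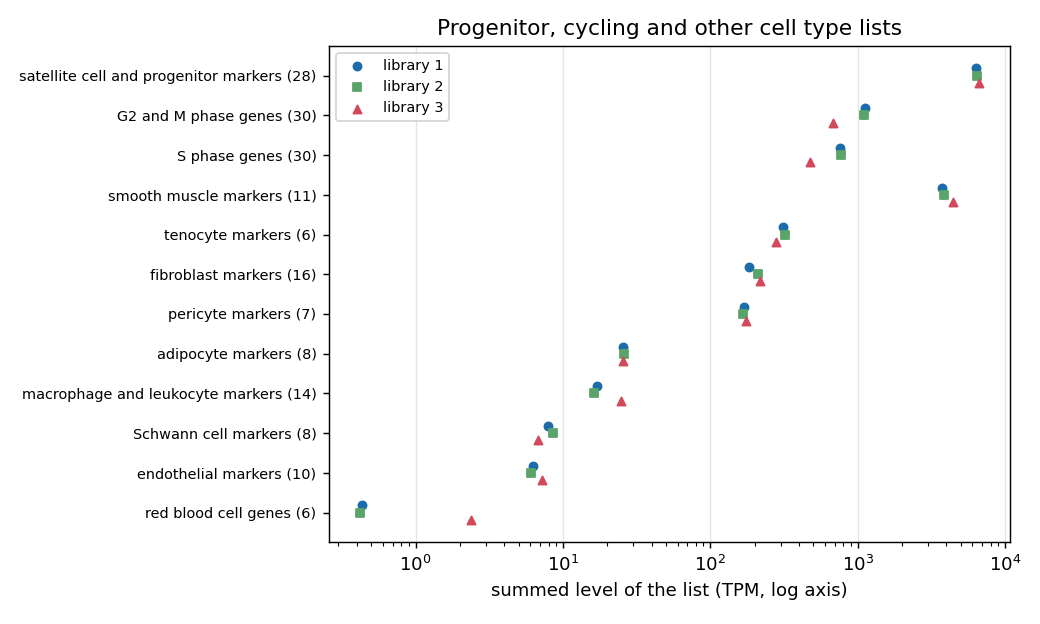
Summed level in TPM (log axis) of progenitor, cycling and other cell type gene lists, with the number of measured genes in brackets and 1 point for each untreated library. The cycling lists lie lowest in library 3 (476 TPM for S phase and 681 TPM for G2 and M phase), and the endothelial, Schwann cell and red blood cell lists stay under 10 TPM.

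Stress and signal genes were read from lists of general use. The unfolded protein response and ATF4 list had 24 of 25 genes at 1 TPM or more, led by Calr (1382 TPM), Hsp90b1 (758 TPM) and Atf4 (754 TPM). All 20 immediate early genes were at 1 TPM or more, led by Jun (247 TPM), Jund (209 TPM) and Junb (155 TPM). The interferon response was low, with 10 of 20 genes at 1 TPM or more, against 70.5% of all genes with a length. Bst2 (31.1 TPM), Stat2 (11.6 TPM) and Ifit2 (8.23 TPM) were in the lead, with no count for Oas1a and Ifi44. Of the cholesterol synthesis genes, all 25 were at 1 TPM or more, led by Cyp51 (318 TPM), Insig1 (266 TPM) and Hmgcs1 (264 TPM).

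The spread between the libraries was small for most genes. Among the 13581 genes whose normalized counts averaged 10 or more, the median ratio of the highest library to the lowest was 1.18 and the median coefficient of variation was 8.64%. The ratio reached 1.5 in 2301 genes (16.9%) and 2 in 691 genes. The common biological coefficient of variation, the spread left after counting noise, was 10.1% over the 3 libraries by edgeR. Without replicate 3 it was 2.99%, and the genes at a ratio of 1.5 or more came to 659. Replicate 3 was the outermost library for 81.6% of genes, as the highest in 5546 and as the lowest in 5532. Among 3 libraries that are all alike, each would still be the outermost for most genes. With a ratio of at least 1.5, replicate 3 was the highest library in 7.86% of the genes and the lowest in 6.82%.

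Genes that cycling cells use were lowest in replicate 3 throughout. Of the 30 S phase genes all 30 had their lowest normalized count there, and 20 reached a ratio of 1.5, and of the 30 G2 and M phase genes all 30 were lowest there and 25 reached it. Over all genes replicate 3 was the lowest library in 40.7%, and in 6.82% with a ratio of 1.5 or more. The summed levels were 763, 775 and 476 TPM for S phase and 1116, 1113 and 681 TPM for G2 and M phase. The ratio over the 60 genes ran from 1.10 for Ccne1 to 2.38 for Chaf1b with a median of 1.63, against 1.18 over all genes. Without replicate 3 none of the 60 reached 1.5, and the median ratio was 1.08 for S phase and 1.04 for G2 and M phase. The lowest position of replicate 3 held for all 60 genes with TMM factors, median-ratio factors and total counts as well, although with total counts it was the lowest library for 56.8% of all genes.

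**Figure D5:**
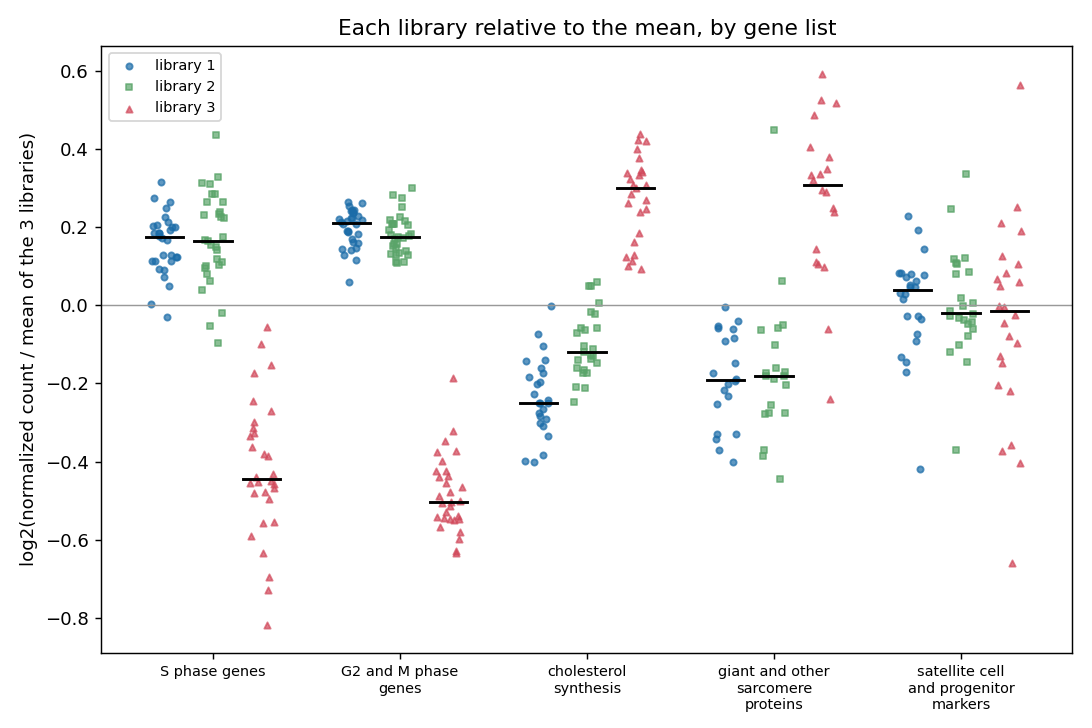
Log2 of the normalized count of each gene over its own mean of the 3 untreated libraries, for 5 gene lists, with 1 point per gene and library and a bar at the median of each library. All 30 S phase and all 30 G2 and M phase genes have their lowest point in library 3 and all 25 cholesterol synthesis genes their highest.

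Contractile, cholesterol and imprinted genes stood the other way. Replicate 3 was the highest library for 18 of 20 large sarcomere proteins, of which 8 reached a ratio of 1.5 that way, for 7 of the 8 sarcomeric heavy chains that passed the count filter, of which 6 reached it, and for 12 of 13 coupling partners, of which 3 did. It was the highest for 25 of 25 cholesterol synthesis genes, of which 10 reached 1.5, and for 16 of 20 imprinted genes, of which 7 did. Over all genes replicate 3 was the highest library in 40.8%, and in 7.86% with a ratio of 1.5 or more. Without replicate 3 the members of these 5 lists at 1.5 or more, in the same order, came to 1, 1, 0, 0 and 2. With total counts in place of the authors' size factors, the members highest in replicate 3 came to 18, 7, 10, 23 and 14, while the share of all genes highest there went from 40.8% to 26.7%. Examples are Cdkn1c, with a ratio of 1.93 (1.16 without replicate 3), Atp2a1 with 1.69 (1.09) and Tcap with 1.85 (1.03). None of the 4 acetylcholine receptor subunits that passed the filter reached 1.5, against 16.9% of all genes. So few genes cannot be told from that share. Myog had a ratio of 1.08.

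The 8 genes with the largest ratio among genes whose normalized counts averaged 100 or more were highest in replicate 3 in 7 cases. Postn (periostin, a matrix protein) had normalized counts of 95.8, 124 and 468, a ratio of 4.88. Il1rl1, a receptor for interleukin-33, was the exception with 137, 135 and 33.2. Myoz1 and Mybpc2, genes of fast adult fibres, had ratios of 3.68 and 2.91, and Sln, which inhibits the calcium pump, 3.49. Nup210, a nuclear pore gene of differentiating muscle, had a ratio of 2.94, and Islr and Mfap4, genes of stromal cells, 3.59 and 2.92. Islr and Mfap4 share exonic sequence with the neighbouring genes Islr2 and Mapk7, so their values are uncertain. Without replicate 3 the ratios of these 8 genes ran from 1.01 for Il1rl1 to 1.46 for Mfap4. Of the 12 fibroblast markers that passed the count filter, replicate 3 was the highest library for 5 and the lowest for 2. Over all genes these shares were 40.8% and 40.7%. A ratio of 1.5 was reached by 5 of the 12 (41.7%), against 16.9% of all genes. With that ratio, replicate 3 was the highest in 3 of the 12 and the lowest in 1, against 7.86% and 6.82% of all genes. Without replicate 3, 1 of the 12 reached 1.5. The whole fibroblast list summed to 184, 209 and 218 TPM. The part of other cell types in the spread was not tested. Per the labels, 2 samples of the series had an RNA integrity number under 7.5 and are not identified in the labels, so the part of RNA quality was not tested either.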

How the data were processed

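RNA was sequenced as single reads of 60 nt from 6 libraries, of which the 3 untreated ones were used. Groups and replicate numbers came from the titles. The submitters' processing notes name cutadapt, STAR, HTSeq, DESeq2 and the build GRCm38. Annotation, strand setting and the treatment of reads with several matches are not given in these sources. Raw counts of 18864 gene symbols were deposited by the authors, per the file headers. The authors also deposited normalized counts, a signal equal to the raw count divided by a size factor per library (0.982, 0.984 and 0.905).

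Levels in TPM were computed from the raw counts with exonic lengths of GENCODE M21, which may differ from the authors' annotation. In all, 18334 symbols matched by name, 230 by a RefSeq synonym, and 300 had no length (0.233% of counts). Overlapping genes and near copies were flagged by shared exons and by 60-base windows: 18 of 146 family members shared over 20% of their windows with another gene and 78 shared none. Spread was described over genes with a mean normalized count of 10 or more, with edgeR 4.0.16 in R 4.3.3 for the biological coefficient of variation (a fit with an intercept alone). Both computations were tested on simulated data. With 1 group there was no comparison and no test, and 3 libraries give only a rough standard deviation (SD). Depth was 18335559 to 18682099 counts, and 1 count in a gene of 1000 bases came to 0.182 to 0.183 TPM.

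The members, the 41 families and the 25 other lists were chosen with earlier results of these data known. Genes named are the 5 markers, the 25 most abundant, in each family the leader, the runner-up and members at 5% or more, in each list the 3 highest and, in cell type lists, those at 0, and the 8 most variable. Some others were named after their values were seen. The members of 1 family and of 1 list, and some single genes, are not reported here.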

Additional observations from a re-analysis of the deposited data

How the results depend on the processing

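The counts of genes at 1 TPM or more, of families with 1 leader and of cycling genes kept within 1.5 times the value reported under every alternative run. The share of counts in the 100 most counted genes was 22.0% without mitochondrially encoded genes, and 23.2% to 24.6% with each replicate left out in turn. The number of genes with a ratio of 1.5 or more was 658 among genes averaging 100 or more, 6322 with no filter, and between 659 and 1592 with 1 replicate left out, the lowest without replicate 3. Fewer or more genes enter under the filters, and 2 libraries give a smaller ratio than 3. The biological coefficient of variation was 2.99% without replicate 3 and 12.6% without replicate 1. TMM factors, median-ratio factors and total counts left both of these measures within 1.5 times. Family leaders depend on length: with the median length of coding transcripts the leader changed in 6 families, with the longest transcript in 3 and without length in 5. No paired analysis was possible because a single group was described. With 3 libraries, differences under about the spread printed beside each mean cannot be read, and levels under 1 TPM rest on few reads.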
